A study of Homo sapiens with 8 samples.

Results

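The nuclear receptor superfamily was followed here as 46 genes, taken by symbol from a list of human receptor genes and matched to the Ensembl identifiers of the count table, which holds 58206 genes. All 46 were found. The list was set by family membership and not by expression values, but it was chosen with earlier results of these data known. In these libraries 35 of the 46 were abundant enough to be tested, 9 had a few counts only, and 2 had none.

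Nuclear receptors are transcription factors that share a zinc-finger DNA-binding domain and a ligand-binding domain. Many are switched on by small lipophilic molecules such as steroids, thyroid hormone, retinoic acid, fatty acids, oxysterols or bile acids, and those that bind as heterodimers use a retinoid X receptor (RXR) as the shared partner. Others are orphans with no agreed physiological ligand, and a pair of atypical members lacks the DNA-binding domain and acts by binding other receptors. In liver the family governs bile acid, lipid, glucose and drug metabolism, and HNF4A is a defining regulator of the hepatocyte.

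The cells were Alexander1, an established epithelial line from a human hepatocellular carcinoma, grown in DMEM with fetal bovine serum, glutamine and antibiotics. Its own Axin1, a scaffold that restrains Wnt signalling, lacks the segment that binds the kinase GSK3, per the submitters' text. The 4 parental libraries carry the genotype label wt (Axin1 -). The other 4 carry the label Axin1 + and come from a derivative given an Axin1 plasmid through a VSVG retrovirus, with clones selected in hygromycin B; the labels print this treatment text for all 8 samples and do not say how many clones were used. The labels do not say whether the 4 replicates of a group were separate cultures, so the p-values measure the spread between these samples, which may be technical.

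Library totals ran from 11232951 to 15263761 counts in the parental group and from 12372436 to 26400782 in the other, so that 3 counts corresponded to 0.108 to 0.267 CPM (the usual depth-normalised count, here on TMM-scaled library totals). AXIN1 mRNA stood at 52.4 CPM ± 3.49 in the parental libraries and 45.4 CPM ± 5.13 (n = 4 per group, SD) in those labelled Axin1 +, which is -0.21 on the log2 scale (SE 0.12) with an edgeR adjusted p of 0.267. The counts for the gene therefore did not show a rise, and the second group is called "restored-labelled" below because every direction rests on the label. Restored-labelled replicate 1 stood apart from the others of its group for several receptors, and parental replicate 1 most clearly for NR0B1. Results that rest on these libraries are given with and without them.

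By the mean over all 8 libraries the most abundant receptors were HNF4A, NR2F6, ESRRA and NR1H2, while in the parental libraries ESRRA had the highest mean. Levels between genes were compared as TPM, for which counts were divided by the gene's exon length and rescaled to the same sum in each library. HNF4A, which drives apolipoprotein and clotting factor genes, averaged 142 TPM ± 40.5 in the parental and 159.5 TPM ± 34.6 in the restored-labelled libraries (n = 4 per group, SD), above 98.1% of all genes in the table. NR2F6, an orphan of the COUP-TF group, was at 142 TPM ± 6.33 and 149 TPM ± 8.37. ESRRA, the oestrogen-related receptor alpha that regulates mitochondrial genes, stood at 158 TPM ± 7.85 and 115 TPM ± 12.3. The oxysterol receptor NR1H2 (liver X receptor beta) stood at 76.8 to 102 TPM and 115 to 129.9 TPM. HNF4A spanned the values of NR2F6 and ESRRA in the parental libraries, so its place in the order is not resolved. ESRRA lay above NR2F6 in the parental libraries (152.3 to 169 TPM against 139 to 151.9 TPM) and below it in the restored-labelled ones (98.1 to 128 TPM against 141 to 160.5 TPM), with no overlap in either group.

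Behind these came NR4A1, an immediate early gene, with a mean of 74.3 TPM over the 8 libraries. The fatty acid receptor PPARD (56.1 TPM), the heterodimer partner RXRB (50.6 TPM), the COUP-TF member NR2F2 (41.1 TPM), the atypical repressor NR0B2 (38.2 TPM) and the retinoic acid receptor RARA (28.3 TPM) completed the 10 most abundant members. In all, 20 members averaged over 10 TPM, 14 lay between 0.5 and 10 TPM, and 12 lay under 0.5 TPM. The partner RXRA, the main retinoid X receptor of liver, was at 5.24 TPM ± 1.19 and 5.81 TPM ± 0.469, well below RXRB at 46.8 TPM ± 10.9 and 54.4 TPM ± 9.49, with no overlap between those genes in any library. Exons of RXRB overlap those of SLC39A7 on the other strand, so reads of both could be mixed in the RXRB level. TPM rests on all annotated exons of a gene, so a gene with long unused exons is set too low.

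**Figure D1:**
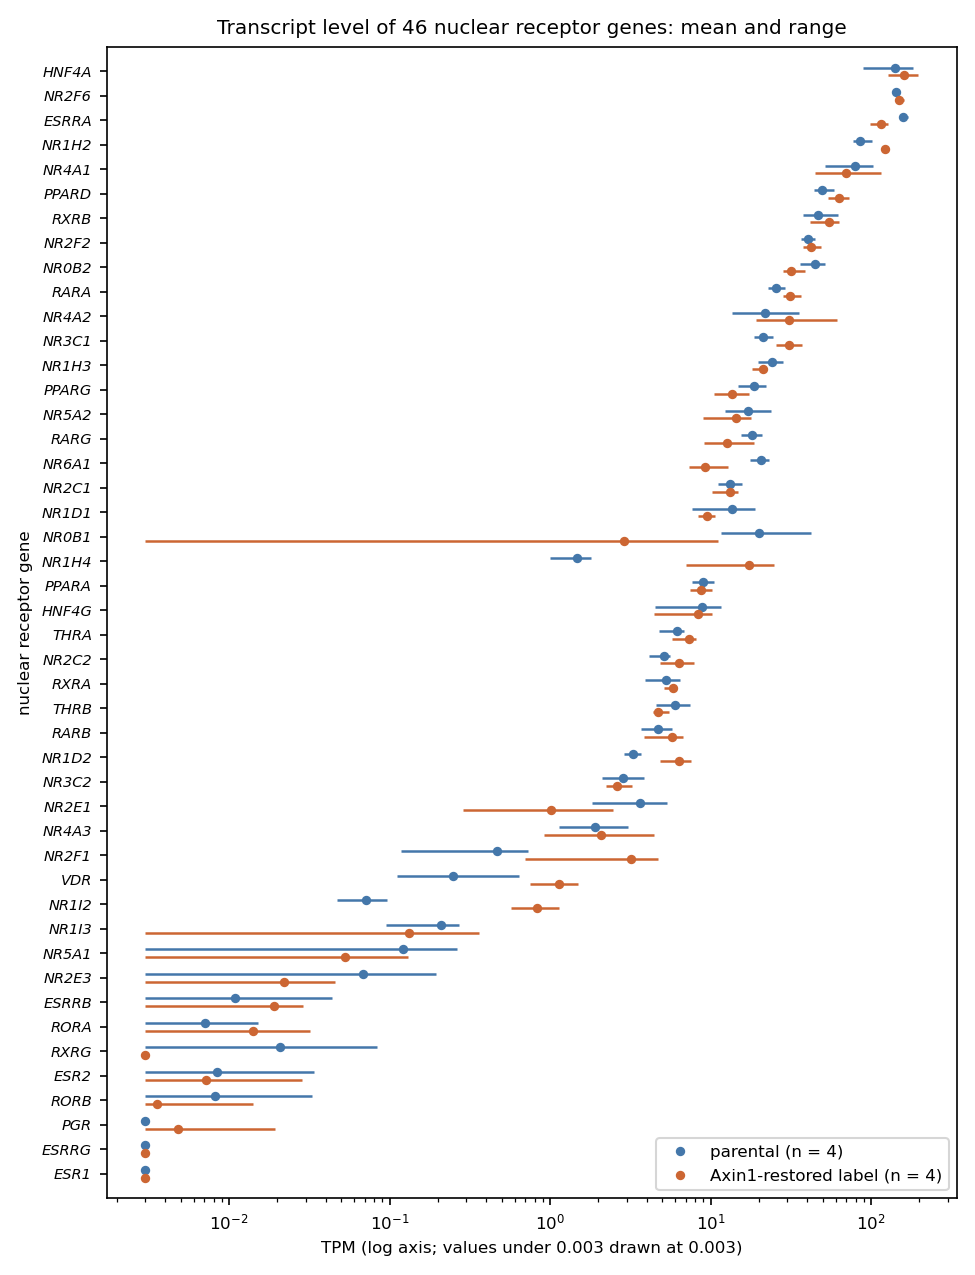
Transcript level in TPM (log axis) of the 46 nuclear receptor genes, ordered by the mean over all 8 libraries. Points are group means of 4 libraries and lines run from the lowest to the highest library, with values under 0.003 drawn at 0.003; HNF4A, NR2F6, ESRRA and NR1H2 sit at the top and ESR1 and ESRRG, with no count, at the bottom.

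The oestrogen and progesterone receptors were nearly silent. ESR1, the oestrogen receptor alpha, had 0 counts in all 8 libraries, as did the oestrogen-related receptor ESRRG, which allows up to 3 counts in each. ESR2, the other oestrogen receptor, and ESRRB, RORB and RXRG had at most 1 count in any library, the progesterone receptor PGR and the photoreceptor factor NR2E3 at most 2, and RORA and NR5A1 at most 4. NR1I3, the constitutive androstane receptor, a xenobiotic sensor of normal hepatocytes, had at most 7 counts in a library. These 11 genes were not tested. The glucocorticoid receptor NR3C1 was well expressed, at 21.2 TPM ± 2.51 and 30.8 TPM ± 5.27, and the mineralocorticoid receptor NR3C2 was at 2.83 TPM ± 0.762 and 2.60 TPM ± 0.487.

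The main comparison asked which receptors differed between the labels. Of the 35 tested members 5 rose and 6 fell under a threshold of 0.05 on the Benjamini-Hochberg adjusted p, taken over all 14289 genes tested by the quasi-likelihood test of edgeR, a share of 31.4%. The background was 19.2% of all tested genes, 10.4% higher and 8.77% lower. The median log2 fold change of the tested members was -0.05 and the median size of change 0.35, against 0.00 and 0.31 over all tested genes. The genes that rose were NR1H4, NR1I2, NR2F1, VDR and NR1D2, and those that fell were NR6A1, NR2E1, RARG, NR0B2, ESRRA and PPARG. The 4 parental and 4 restored-labelled values did not overlap for 12 of the 35, 4 higher and 8 lower, where the background was 23.9% (12.7% higher and 11.2% lower).

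The number called depended on the libraries used. It was 5 without parental replicate 2 or without restored-labelled replicate 4, 7 without parental replicate 4 or restored-labelled replicate 2 or 3, 14 without parental replicate 1, and 15 without replicate 1 of both groups. With total counts in place of scaled totals the split was 7 higher and 3 lower, and over all genes 1724 higher and 868 lower against 1485 and 1253.

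**Figure D2:**
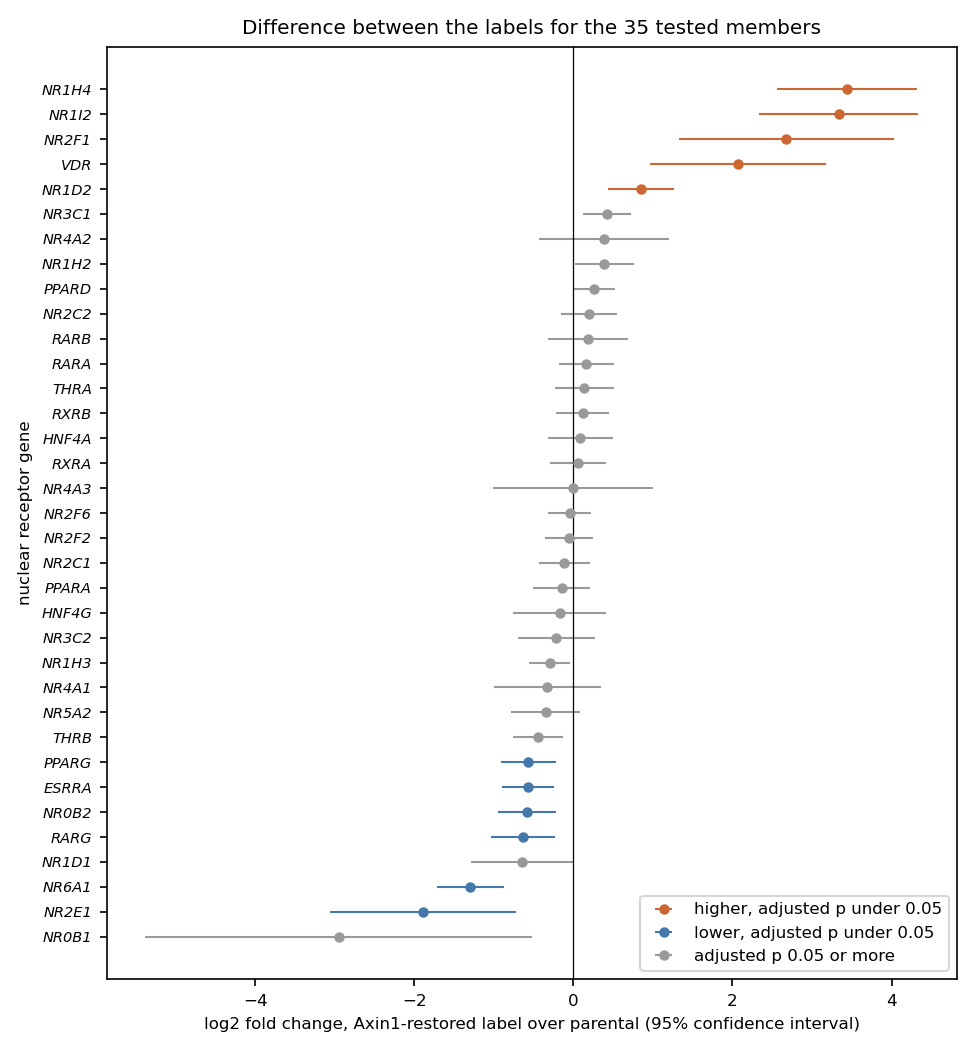
Log2 fold change, restored-labelled over parental, of the 35 tested members with 95% confidence intervals, coloured by the edgeR call at an adjusted p under 0.05. NR1H4 and NR1I2 lie above 3 and NR2F1 and VDR above 2, while NR0B1, the lowest estimate, has the widest interval and did not pass.

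NR1H4 (ENSG00000012504, chromosome 12, 100473708 to 100564413 in GRCh38, plus strand) encodes the farnesoid X receptor (FXR), the bile acid sensor of liver and gut. The parental libraries, in the order of their replicate numbers, had 2.05, 1.96, 1.51 and 1.00 CPM, and the restored-labelled libraries had 6.74, 20.6, 20.1 and 23.6 CPM. Every restored-labelled value lay above every parental one, with replicate 1 well below its group. The fold change was 10.9, a log2 value of 3.44 (SE 0.40, 95% confidence interval 2.56 to 4.32, edgeR adjusted p = 0.000354). Without restored-labelled replicate 1 the log2 fold change was 3.71 (edgeR adjusted p = 1.06e-05). The 40 tested neighbours of NR1H4 on the chromosome, 20 on each side, had a median log2 fold change of 0.05.

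Promoter windows from RefSeq (GRCh38.p14) were read at the start sites, each from 250 bases before to 50 bases after an annotated start. Printed is 1 window each of NR1H4, NR1I2 and NR2F1, the largest rises that passed, and of NR2E1, the largest fall that passed. NR0B1, with a larger estimated fall, did not pass and is not printed. Windows were available for 41 of the 46 members, several with more than 1 start, and counts per gene do not tell which start these cells use. They are printed 5′ to 3′ on the gene's strand, all plus, and capitals mark matches on either strand to the receptor half-site AGGTCA or to the TCF/LEF motif in the forms CTTTGAT and CTTTGAA, which is bound by the transcription factors of the Wnt pathway.
NR1H4, chr12:100503110-100503409: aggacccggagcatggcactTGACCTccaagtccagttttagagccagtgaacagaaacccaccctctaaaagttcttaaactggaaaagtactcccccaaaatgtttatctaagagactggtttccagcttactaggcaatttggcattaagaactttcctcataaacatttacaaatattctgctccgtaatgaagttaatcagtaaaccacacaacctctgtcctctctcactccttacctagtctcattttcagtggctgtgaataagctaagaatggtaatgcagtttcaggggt
NR1I2, chr3:119781851-119782150: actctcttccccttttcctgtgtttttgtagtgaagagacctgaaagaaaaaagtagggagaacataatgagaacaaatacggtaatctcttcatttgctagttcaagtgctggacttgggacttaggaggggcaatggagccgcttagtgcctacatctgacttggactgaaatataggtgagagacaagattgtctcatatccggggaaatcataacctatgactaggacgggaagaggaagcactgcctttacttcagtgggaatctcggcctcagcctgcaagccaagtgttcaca
NR2F1, chr5:93582972-93583271: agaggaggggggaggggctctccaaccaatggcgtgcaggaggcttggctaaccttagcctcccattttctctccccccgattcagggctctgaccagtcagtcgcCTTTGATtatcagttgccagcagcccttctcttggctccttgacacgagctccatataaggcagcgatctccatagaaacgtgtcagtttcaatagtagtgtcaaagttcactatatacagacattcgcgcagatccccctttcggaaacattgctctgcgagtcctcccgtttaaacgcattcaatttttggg
NR2E1, chr6:108167773-108168072: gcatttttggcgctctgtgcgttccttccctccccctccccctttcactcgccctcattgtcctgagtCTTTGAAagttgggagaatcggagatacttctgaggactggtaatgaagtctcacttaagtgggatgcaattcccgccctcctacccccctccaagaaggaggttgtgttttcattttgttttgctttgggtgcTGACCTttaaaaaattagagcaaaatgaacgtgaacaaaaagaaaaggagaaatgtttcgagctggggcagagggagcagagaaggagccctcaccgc

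The NR1H4 window lies inside the GENCODE gene span, holds 1 half-site match starting 230 bases before the start (position -230) on the minus strand, and has a GC content of 41.7% with 2 CpG dinucleotides, where all windows averaged 57.5% GC. The NR1I2 window and that of its other annotated start hold neither motif. The NR2F1 window has a CTTTGAT match at position -144, and its other annotated start has one at -237 on the minus strand. The NR2E1 window has a CTTTGAA match at -182 and a half-site match at -48, while the window of its other annotated start, chr6:108165772-108166071, holds neither motif. Among all windows of the same length in the table, 6.86% hold a TCF/LEF match in either form and 13.8% a half-site match, against 4.17% and 16.7% of the 96 windows of the receptors. A match describes letters only and is not evidence of binding.

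NR1I2 and VDR, a pair of RXR partners of 1 subfamily, rose from near the detection limit. NR1I2 (ENSG00000144852, chromosome 3, 119780484 to 119818485, plus strand) encodes the pregnane X receptor (PXR), which senses drugs and bile acids. It had 1, 2, 1 and 2 counts in the parental libraries and 28, 23, 18 and 33 counts in the restored-labelled ones. The groups did not overlap, and the ratio of the summed counts, corrected for scaled totals, was 10.13 with an exact counting interval of 4.498 to 28.26. In CPM the means were 0.114 ± 0.0292 and 1.27 ± 0.452 (n = 4 per group, SD), with an edgeR adjusted p of 0.000912, and leaving out any 1 library kept the adjusted p at 0.0055 or less.

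VDR (ENSG00000111424, chromosome 12, 47841537 to 47943048, minus strand), the vitamin D receptor, stood at 0.267, 0.203, 0.178 and 1.00 CPM in the parental libraries and 2.15, 1.32, 1.43 and 2.23 CPM in the restored-labelled ones. Parental replicate 4 was the highest of its group and still below every restored-labelled value. The log2 fold change was 2.07 (SE 0.50, edgeR adjusted p = 0.0172). The call was lost without parental replicate 2 or restored-labelled replicate 4 (edgeR adjusted p = 0.0605 and 0.057), and without parental replicate 4 the log2 fold change was 3.02 (edgeR adjusted p = 0.00274).

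NR2F1 (ENSG00000175745, chromosome 5, 93583224 to 93594615, plus strand) encodes COUP-TFI, an orphan that often represses. It stood at 0.178, 0.948, 0.802 and 0.429 CPM in the parental libraries and at 0.789, 4.54, 4.88 and 5.31 CPM in the restored-labelled ones. Restored-labelled replicate 1 lay within the parental range and the other 3 above it. The log2 fold change was 2.67 (SE 0.62, edgeR adjusted p = 0.0136) and was 3.02 (edgeR adjusted p = 0.000774) without that library. With limma-voom the call was lost (log2 fold change 2.40, adjusted p = 0.0707). Exons of NR2F1 overlap those of NR2F1-AS1 on the other strand, and the strand setting of the counting is not given in the sources used here. Its tested neighbours had a median of 0.39. Its close relatives NR2F2 and NR2F6 were far more abundant and did not pass, with log2 fold changes of -0.06 (95% confidence interval -0.36 to 0.25) and -0.05 (-0.32 to 0.23), each of which turned positive with total counts only (0.036 and 0.038).

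NR1D2 (ENSG00000174738, chromosome 3, 23945260 to 23980618, plus strand) encodes REV-ERB beta, a haem-binding repressor in the circadian clock. It stood at 5.87, 6.499, 5.43 and 5.22 CPM in the parental libraries and at 10.1, 11.9, 8.13 and 11.5 CPM in the restored-labelled ones, with no overlap. This 1.80-fold rise (log2 0.85, SE 0.19, edgeR adjusted p = 0.0113) kept its call with each library left out in turn. Its paralogue NR1D1, REV-ERB alpha, did not pass and had an estimate of the other sign (log2 fold change -0.64, 95% confidence interval -1.28 to -0.01, edgeR adjusted p = 0.145). NR1D1 was at 18.5 CPM in parental replicate 1 and at 6.06 to 11.1 CPM in the other parental libraries; its log2 fold change was -0.34 without the first, and -0.86 with an edgeR adjusted p of 0.0424 without parental replicate 3. NR1D1 shares exon sequence with THRA on the opposite strand, so reads of both could be mixed.

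**Figure D3:**
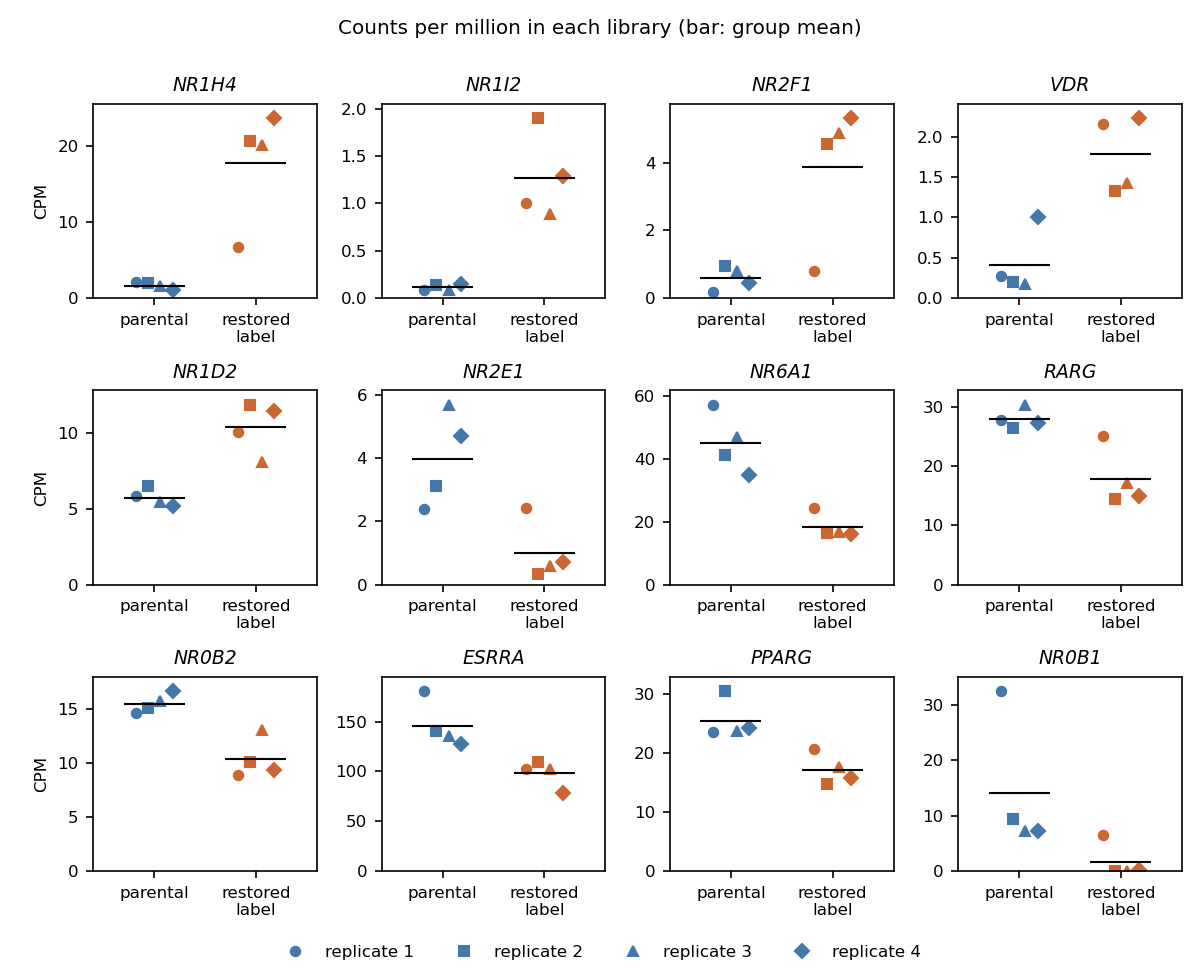
Level in CPM in each of the 8 libraries for the 11 members that passed and for NR0B1; the symbol shape gives the replicate number and the bar the group mean. Restored-labelled replicate 1 (circle) lies toward the parental values for NR1H4, NR2F1, NR2E1, NR6A1 and RARG, and parental replicate 1 is the highest NR0B1 value.

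NR6A1 showed the clearest fall. NR6A1 (ENSG00000148200, chromosome 9, 124517275 to 124771310, minus strand), the germ cell nuclear factor, is an orphan that represses pluripotency genes during development. It stood at 57.2, 41.2, 47.0 and 34.995 CPM in the parental libraries and at 24.2, 16.3, 16.7 and 16.1 CPM in the restored-labelled ones, with no overlap. This was a change of -1.29 on the log2 scale (SE 0.19, 95% interval -1.72 to -0.87, edgeR adjusted p = 0.00143), and leaving out any 1 library kept it between -1.46 and -1.16 with an adjusted p of 0.00804 or less. Its neighbours had a median of -0.005.

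NR2E1 (ENSG00000112333, chromosome 6, 108166058 to 108188809, plus strand), known as TLX, is an orphan of neural stem cells and is not a usual liver gene. It stood at 2.40, 3.11, 5.70 and 4.72 CPM in the parental libraries and at 2.44, 0.330, 0.591 and 0.703 CPM in the restored-labelled ones. The groups overlapped through restored-labelled replicate 1, which was as high as the lowest parental library. The log2 fold change was -1.89 (SE 0.53, edgeR adjusted p = 0.0308) and -2.80 (edgeR adjusted p = 0.00143) without that library. Leaving out any other library except parental replicate 1 ended the call, with edgeR adjusted p from 0.057 to 0.0985.

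The smaller falls were found in ESRRA, PPARG, RARG and NR0B2, to between 0.643 and 0.676 of the parental level each. ESRRA (ENSG00000173153, chromosome 11, 64305572 to 64316743) stood at 180.5, 140.2, 136 and 128 CPM in the parental libraries and at 102, 109.7, 102 and 78.0 CPM in the restored-labelled ones (log2 fold change -0.57, SE 0.15, edgeR adjusted p = 0.0225). Its neighbours had a median of -0.32, and its exons overlap those of TRMT112 on the opposite strand. PPARG (ENSG00000132170, chromosome 3, 12287368 to 12434356), the fatty acid receptor of adipocytes, stood at 23.5, 30.5, 23.7 and 24.2 CPM against 20.6, 14.8, 17.6 and 15.7 CPM (log2 fold change -0.57, SE 0.16, edgeR adjusted p = 0.0293). In both genes every restored-labelled value lay below every parental one.

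RARG (ENSG00000172819, chromosome 12, 53210567 to 53232980), the retinoic acid receptor gamma, stood at 27.8, 26.4, 30.4 and 27.3 CPM in the parental libraries and at 25.1, 14.4, 17.1 and 15.03 CPM in the restored-labelled ones (log2 fold change -0.64, SE 0.18, edgeR adjusted p = 0.0334). Restored-labelled replicate 1 was just under the parental range, and without it the log2 fold change was -0.85 and the call was kept. NR0B2 (ENSG00000131910, chromosome 1, 26911489 to 26913966) encodes the small heterodimer partner (SHP), a repressor without a DNA-binding domain that FXR induces in hepatocytes. It stood at 14.6, 15.03, 15.7 and 16.6 CPM and at 8.90, 10.1, 13.1 and 9.37 CPM, again without overlap (log2 fold change -0.58, SE 0.17, edgeR adjusted p = 0.0318). Its neighbours had a median of -0.24. NR0B2 was lower and NR1H4 higher in the restored-labelled libraries, and a link between them was not tested.

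These 4 calls stood near the threshold. ESRRA lost its call without parental replicate 2 or restored-labelled replicate 3 or 4 (edgeR adjusted p from 0.0543 to 0.0705), and PPARG without parental replicate 2 or 4 or restored-labelled replicate 2, 3 or 4 (0.0504 to 0.102). RARG lost it without any of replicates 2, 3 and 4 of either group (edgeR adjusted p from 0.0606 to 0.104), and NR0B2 without any library other than parental replicate 1 or restored-labelled replicate 3 (0.0576 to 0.0983). With total counts only PPARG, RARG and NR0B2 did not pass, and with the replicate number as a block PPARG and NR0B2 did not.

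NR0B1 (ENSG00000169297, chromosome X, 30304206 to 30309598, minus strand), known as DAX1, is the other receptor without a DNA-binding domain and a repressor of steroid hormone synthesis. It had 365, 138, 81 and 102 counts in the parental libraries and 181, 1, 0 and 3 counts in the restored-labelled ones. In CPM these were 32.5, 9.34, 7.22 and 7.30 against 6.49, 0.0826, 0 and 0.117. The groups did not overlap, but replicate 1 was the highest library in each group, and the restored-labelled one was close to 3 of the parental values. Over all 8 libraries the estimate was -2.95 (log2, SE 1.11, bounds of the 95% interval -5.38 and -0.52), and at an edgeR adjusted p of 0.0871 it did not pass. Without parental replicate 1 it was -2.13 (edgeR adjusted p = 0.151), and without restored-labelled replicate 1 it was -7.52 (edgeR adjusted p = 0.000516). Without both it was -6.71 (edgeR adjusted p = 1.83e-07). With the replicate number as a block it was -4.43 (edgeR adjusted p = 0.00999), and with limma-voom -5.40 (adjusted p = 0.0124). Leaving out any other single library left it short of the threshold (edgeR adjusted p of 0.184 at most).

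The share of restored-labelled replicate 1 in these patterns was counted over the receptors that passed. On the log2 CPM scale it was the restored-labelled library nearest to the parental mean for 6 of the 11. Over the 35 tested receptors it was the nearest for 25.7%, and restored-labelled replicate 2 was the nearest for 31.4%. For all 2738 genes that passed, restored-labelled replicate 1 was the nearest library for 49.1%, and for all 14289 tested genes 33.9%. The summed level of 6 cholangiocyte markers was 109.6 TPM in this library and 29.2 to 30.8 TPM in the other restored-labelled ones, and 52.8 TPM in parental replicate 1 and 25.6 to 29.6 TPM in the other parental ones. KRT19 gave 55.8 TPM of the sum in restored-labelled replicate 1, at 34.4 CPM there and 0.0781 to 1.43 CPM in the others of its group. SPP1 was also highest there (10.8 CPM against 0 to 0.345), while CFTR was lowest (8.11 CPM against 10.5 to 14.8). KRT7 and SOX9 were only slightly above the others, and EPCAM had at most 5 counts in any library. Of these markers 5 were tested and 1, CFTR, rose. The part of these markers in the receptor results was not tested.

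Among the receptors that did not pass, several were close. The thyroid hormone receptor THRB stood at 19.7 CPM ± 2.05 and 14.5 CPM ± 1.25 (n = 4 per group, SD) without overlap, at -0.44 on the log2 scale (SE 0.14, edgeR adjusted p = 0.0517), and it passed without parental replicate 1 (edgeR adjusted p = 0.0296). NR3C1 stood at 58.8 CPM ± 8.83 and 78.7 CPM ± 8.68, at 0.42 on the log2 scale (SE 0.14, edgeR adjusted p = 0.0556), which passed without parental replicate 1 (0.0172); its neighbours had a median of 0.50. The liver X receptors had estimates of opposite sign, 0.39 (SE 0.17, edgeR adjusted p = 0.134) for NR1H2 and -0.30 (SE 0.12, edgeR adjusted p = 0.104) for NR1H3, whose values did not overlap (30.8 to 35.4 CPM against 25.3 to 28.6 CPM). NR1H2 passed without parental replicate 1, at 0.57 (edgeR adjusted p = 0.00889). Exons of NR1H3 overlap those of ACP2, and exons of THRB those of THRB-AS1, each on the other strand. Of the 18 other fits, THRB passed in 7, NR3C1 in 4, NR1H2 in 3 and NR1H3 in 1.

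For the central liver receptors the intervals limit how large a difference can have been. HNF4A had a log2 fold change of 0.09 (95% confidence interval -0.32 to 0.49), with parental values from 228 to 367 CPM and restored-labelled values from 256 to 384 CPM, and the estimate turned to -0.032 without parental replicate 1. HNF4G, its paralogue, had -0.17 (-0.75 to 0.41), and NR5A2, the liver receptor homologue that controls bile acid synthesis, had -0.35 (-0.78 to 0.09). PPARA, the fatty acid receptor of the fasting liver, had -0.15 (-0.50 to 0.21), and PPARD, a fatty acid receptor of broad expression, had 0.26 (SE 0.12, edgeR adjusted p = 0.149). The partners RXRA and RXRB had 0.05 (-0.30 to 0.40) and 0.12 (-0.21 to 0.45).

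The retinoic acid receptors RARA and RARB had 0.16 (-0.19 to 0.51) and 0.18 (-0.32 to 0.69), and RARG was the 1 member of the 3 to pass, which does not show that they differ from one another. Of the thyroid and mineralocorticoid receptors, THRA had 0.14 (-0.23 to 0.51) and NR3C2 had -0.21 (-0.70 to 0.27). The testicular orphan receptors NR2C1 and NR2C2 had -0.11 (-0.43 to 0.21) and 0.20 (-0.16 to 0.55).

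The immediate early receptors of the NR4A group, which respond within minutes to growth factors and stress, varied mostly between libraries of a label. NR4A2 stood at 27.9, 21.3, 15.2 and 39.0 CPM in the parental libraries and at 64.1, 24.4, 22.1 and 24.6 CPM in the restored-labelled ones, so that its log2 fold change of 0.39 (SE 0.37) turned to -0.13 without restored-labelled replicate 1. NR4A3 was highest in the same library, at 7.35 CPM against 1.68 to 5.37 CPM in the other 7. NR4A1 ranged from 107 to 264 CPM and from 86.0 to 221 CPM, with the highest value of each group in replicate 1. None of the 3 passed.

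Genes around the receptors were read from 9 lists of coregulators, ligand enzymes and known targets, 173 genes in all. Of these, 138 were tested, 16 rose and 21 fell, a share of 26.8% beside the background of 19.2%, and the median log2 fold change was -0.03. The share called was 1 of 11 tested (9.09%) for the liver X receptor list and 3 of 24 (12.5%) for the coregulators. It was 2 of 15 (13.3%) for the oestrogen-related receptor list and 3 of 16 (18.75%), close to the background, for the clock list. Above the background were the steroid (5 of 19, 26.3%), PPAR (6 of 16, 37.5%), retinoid (4 of 10, 40%) and HNF4 (8 of 18, 44.4%) lists. So was that of FXR, PXR and the constitutive androstane receptor (5 of 10, 50%). With so few genes per list, a few calls move a share widely. The lists move with many regulators besides the receptors, and no list was tested as a set.

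**Figure D4:**
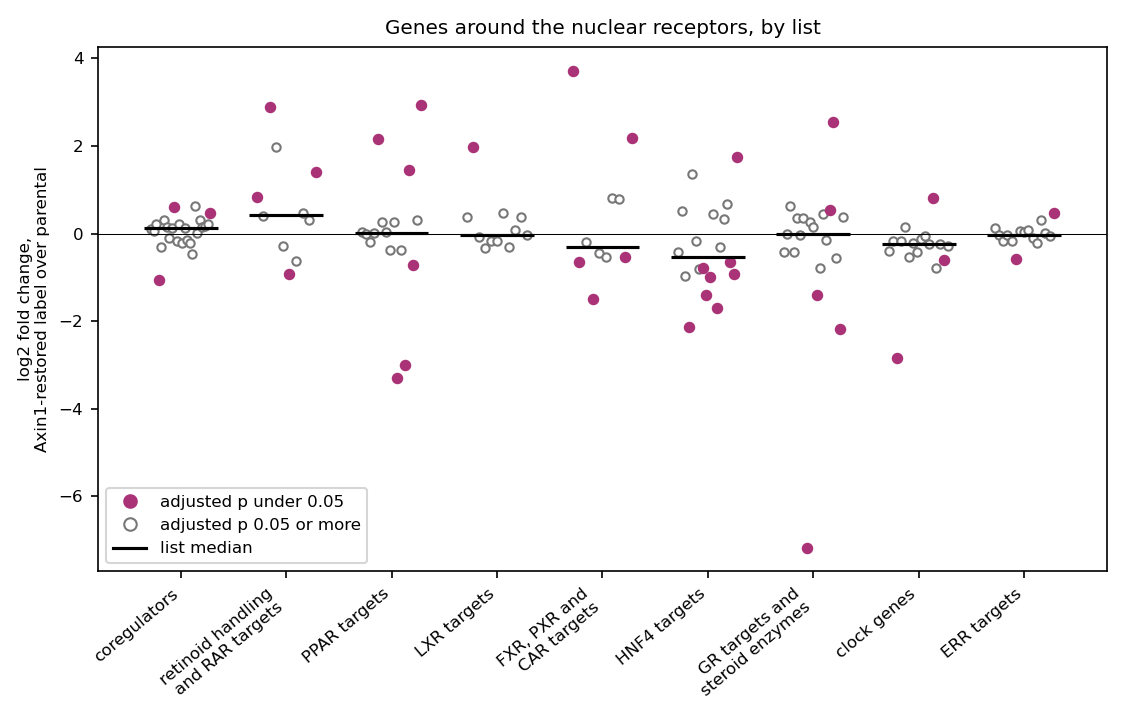
Log2 fold change, restored-labelled over parental, of the tested genes in 9 lists around the nuclear receptors; filled points passed at an edgeR adjusted p under 0.05 and bars are list medians. The HNF4 list has 7 lower and 1 higher gene among those that passed, whereas the PPAR list has 3 of each.

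Coregulators carry the receptors' signal to chromatin. All 24 were tested, 2 rose and 1 fell, and the median was 0.13. FKBP4, a co-chaperone of the steroid receptors, fell from 208 CPM ± 22.6 to 99.3 CPM ± 6.98 (n = 4 per group, SD), or -1.07 on the log2 scale (SE 0.12, edgeR adjusted p = 0.00029). MED1, the Mediator subunit that binds liganded receptors, rose from 29.2 CPM ± 1.83 to 44.7 CPM ± 4.82 (log2 fold change 0.62, SE 0.13, edgeR adjusted p = 0.00788). ZNHIT3, a thyroid receptor interacting protein, rose from 23.0 CPM ± 0.772 to 31.8 CPM ± 2.29 (edgeR adjusted p = 0.0227), a call lost without parental replicate 2 or 3 or restored-labelled replicate 2, 3 or 4 (0.0527 to 0.0701).

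Targets of FXR, PXR and the constitutive androstane receptor went both ways. Of 20 genes 10 were tested, 2 rose and 3 fell, with a median of -0.32. UGT1A1, the bilirubin glucuronosyltransferase, rose from 32.3 CPM ± 11.1 to 147 CPM ± 55.9 (n = 4 per group, SD; log2 fold change 2.19, SE 0.30, edgeR adjusted p = 0.000912), but it shares exons with other UGT1A genes and its counts are uncertain for that reason. BAAT, which conjugates bile acids, fell from 80.2 CPM ± 11.04 to 28.5 CPM ± 8.53 (log2 fold change -1.49, SE 0.21, edgeR adjusted p = 0.000985). The canalicular exporter ABCC2 fell from 958 CPM ± 20.8 to 615 CPM ± 32.1 (edgeR adjusted p = 0.00408).

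A further pair of this list, ABCB1 and SLC51B, already in the counts above, was picked after its values were seen. ABCB1, the drug exporter that PXR induces, stood at 0.534, 1.42, 2.23 and 1.93 CPM in the parental libraries and at 2.48, 23.0, 24.9 and 30.8 CPM in the restored-labelled ones (log2 3.71, SE 0.67, edgeR adjusted p = 0.00428). Restored-labelled replicate 1 was just above the parental range. With limma-voom ABCB1 did not pass (adjusted p = 0.0664). SLC51B, a bile acid exporter subunit that FXR induces, stood at 253 CPM ± 36.3 and 175 CPM ± 25.6 (log2 fold change -0.54, SE 0.15, edgeR adjusted p = 0.0279). The call for SLC51B was lost without parental replicate 2 or 3 or restored-labelled replicate 3 or 4 (edgeR adjusted p from 0.0533 to 0.0934). The FXR targets FGF19 and ABCB11 and the PXR target CYP3A4 were too low to test.

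Among targets of HNF4, whose gene HNF4A did not pass, more fell than rose. Of 19 genes 18 were tested, 1 rose and 7 fell, with a median of -0.53. APOA2, an apolipoprotein of HDL, fell from 1293 CPM ± 180.0 to 294 CPM ± 101 (n = 4 per group, SD; log2 fold change -2.14, SE 0.24, edgeR adjusted p = 0.000243). Transferrin (TF) fell from 3114 CPM ± 733 to 1628 CPM ± 265, and prothrombin (F2) from 503 CPM ± 124 to 253 CPM ± 64.6 (log2 fold changes -0.94 and -0.99, SE 0.20 and 0.22, edgeR adjusted p = 0.00993 and 0.0122).

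PPAR targets of fatty acid use split evenly. Of 20 genes 16 were tested, 3 rose and 3 fell, with a median of 0.02. ACSL1, which activates fatty acids, rose from 2.33 CPM ± 0.420 to 10.4 CPM ± 2.29 (n = 4 per group, SD; log2 fold change 2.17, SE 0.23, edgeR adjusted p = 0.000229), and the pantetheinase gene VNN1 rose from 3.83 CPM ± 3.40 to 28.9 CPM ± 5.07 (2.93, SE 0.44, edgeR adjusted p = 0.00149). Without parental replicate 1 the value of VNN1 was 3.73. The lipid droplet coat gene PLIN2 fell from 88.2 CPM ± 7.34 to 53.7 CPM ± 1.40 (-0.72, SE 0.11, edgeR adjusted p = 0.00148). Of the liver X receptor list, 11 of 15 were tested and only the sterol exporter ABCG1 passed, rising from 0.466 CPM ± 0.428 to 1.80 CPM ± 0.505 (edgeR adjusted p = 0.0229), a call lost without parental replicate 2, 3 or 4 or restored-labelled replicate 3 or 4 (0.0542 to 0.078). Its log2 fold change of 1.97 was 2.7 without parental replicate 1. The liver X receptor target MYLIP did not pass (log2 fold change 0.48, edgeR adjusted p = 0.100).

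In the retinoid list 10 of 19 genes were tested, 3 rose and 1 fell, with a median of 0.43. Transglutaminase 2 (TGM2), a retinoic acid target, rose from 211 CPM ± 39.4 to 563 CPM ± 112 (n = 4 per group, SD; log2 fold change 1.41, SE 0.18, edgeR adjusted p = 0.000691). CRABP1, which binds retinoic acid in the cytoplasm, rose from 0.322 CPM ± 0.213 to 2.50 CPM ± 0.420 (2.89, SE 0.42, edgeR adjusted p = 0.00121).

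In the clock list, 16 of 17 genes were tested, 1 rose and 2 fell, with a median of -0.23. NPAS2, which REV-ERB receptors repress, stood at 49.3, 38.0, 33.5 and 29.9 CPM in the parental libraries and at 67.2, 63.2, 65.8 and 68.7 CPM in the restored-labelled ones (log2 fold change 0.81, SE 0.15, edgeR adjusted p = 0.0053). It thus rose together with NR1D2. BHLHE41, a clock repressor, fell from 7.93 CPM ± 2.67 to 1.06 CPM ± 1.11 (-2.83, SE 0.57, edgeR adjusted p = 0.007), and the value was -4.00 without restored-labelled replicate 1. PER3 fell from 10.5 CPM ± 1.85 to 6.87 CPM ± 1.13 (edgeR adjusted p = 0.0492), a call lost without any of replicates 2, 3 and 4 of either group (0.0758 to 0.139).

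Glucocorticoid targets and steroid enzymes gave 2 higher and 3 lower among 19 tested of 23, with a median of -0.02. Steroid sulphatase (STS), which frees oestrogens and androgens from their sulphates, rose from 3.93 CPM ± 0.970 to 23.1 CPM ± 4.07 (n = 4 per group, SD; log2 fold change 2.55, SE 0.22, edgeR adjusted p = 4.5e-05), and the metallothionein MT2A fell from 15.1 CPM ± 3.55 to 5.72 CPM ± 1.74 (edgeR adjusted p = 0.00544). HSD17B2, which inactivates oestradiol, fell to at most 0.287 CPM in a restored-labelled library (log2 fold change -7.17, and -9.29 without restored-labelled replicate 1). FKBP5, a glucocorticoid target, did not pass (-0.03, edgeR adjusted p = 0.948), nor did the vitamin D target CYP24A1 (-0.41, edgeR adjusted p = 0.282) in libraries where VDR rose. In the oestrogen-related receptor list 15 of 17 were tested, with a median of -0.02. Beside ESRRA itself only UQCRC2, a respiratory complex III subunit, passed, rising from 78.3 CPM ± 6.13 to 109 CPM ± 8.84 (edgeR adjusted p = 0.0154), a call lost without restored-labelled replicate 3 or 4 (0.0547 at most). SIRT5 did not pass (0.30, edgeR adjusted p = 0.131).

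Markers of cell types were read beside these results. All 11 hepatocyte markers were tested, 2 rose and 3 fell, and their summed level was 19099.5 to 25029.9 TPM in the parental and 17779 to 19216 TPM in the restored-labelled libraries. Of the endothelial markers PECAM1 alone was tested and rose 9.32-fold, while TEK was at 0 and KDR, CDH5 and VWF had at most 6 counts in a library. Of the blood cell markers LYZ alone was tested and did not pass, CD3E was at 0 and PTPRC had at most 2 counts. Of the 7 fibroblast markers 2 were tested and 1, PDGFRB, fell, from 1.69 CPM ± 0.639 to 0.221 CPM ± 0.162 (n = 4 per group, SD; edgeR adjusted p = 0.00454). The other, COL1A1, did not pass and had a log2 fold change of the other sign. COL1A2 and DCN had at most 1 count in a library. In RNA from whole cultures, fewer cells of a type and less RNA per cell cannot be told apart.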

How the data were processed

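RNA from 8 libraries of the Alexander1 line, 4 per group, was prepared with a KAPA mRNA kit, per the labels. The authors deposited raw counts per Ensembl gene, without normalization. The submitters' processing notes name bcl2fastq, fastp 0.23.1, STAR 2.7.4 and the build GRCh38. The counting tool, annotation and strand setting are not given in the sources used here. Of 58206 gene identifiers, 57943 were found in GENCODE 29 (GRCh38), which gave coordinates and exon lengths.

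Genes passing filterByExpr (minimum count 10, minimum total 15) were scaled by TMM and tested with edgeR 4.0.16 (R 4.3.3) by its quasi-likelihood F-test, without covariates, and p-values were adjusted over all 14289 genes. CPM values use the scaled totals, and fitted fold changes shrink for low counts. The fit was tested on simulated data. Totals of 11232951 to 26400782 counts set the precision, and counting intervals cover counting error only. Named were the members that passed or did not overlap between groups, the 10 most abundant, and the 3 genes of smallest p in each list, of which 1 is not reported here. Members and lists were chosen with earlier results of these data known. Alternatives covered scaling, filters, the threshold, DESeq2 1.42.0, voom in limma 3.58.1, a replicate block, and each library left out in turn. 2 were chosen after seeing the data, leaving out replicate 1 of both groups and thinning every library to 11232951 counts.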

Additional observations from a re-analysis of the deposited data

Results flagged for a closer look

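Single libraries stood far from the other 3 of their group for 7 of the 70 groups of 4 values of the tested receptors, by the gap to the nearest value relative to the whole range, where chance flags about 1 in 20 groups. Restored-labelled replicate 1 was the one for 4 of them. NR1H4, the bile acid receptor, was at 6.74 CPM there and at 20.1 to 23.6 CPM in the others, and NR2F1 at 0.789 CPM against 4.54 to 5.31 CPM. NR4A2, the immediate early receptor, was at 64.1 CPM against 22.1 to 24.6 CPM, and NR6A1 at 24.2 CPM against 16.1 to 16.7 CPM. In restored-labelled replicate 2 the orphan HNF4G was at 6.60 CPM, below 12.2 to 12.9 CPM in the others. In the parental group NR0B1 was at 32.5 CPM in replicate 1 against 7.22 to 9.34 CPM, and PPARG at 30.5 CPM in replicate 2 against 23.5 to 24.2 CPM.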

How the results depend on the processing

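Of the 11 receptors called, 4 (NR1H4, NR1I2, NR6A1 and NR1D2) kept the call at an adjusted p under 0.05 in each of the 18 other fits that gave a value, and 0 changed direction. At an adjusted p under 0.01 NR1D2 was not among the calls. NR1I2 gave no value with a mean of at least 1 CPM or after thinning, since it was then not tested. At an adjusted p under 0.01 the calls were 3 receptors, 19 list genes and 964 genes in all. With each library left out in turn they ran from 5 to 14 receptors, 22 to 49 list genes and 1394 to 3523 genes. Without replicate 1 of both groups they were 15, 60 and 4623. DESeq2 called 14 receptors and limma-voom 12. With total counts only, 1724 of all genes were higher and 868 lower, and the median log2 fold change moved by 0.083.

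With the replicate number as a block, 10 receptors, 36 list genes and 2033 genes in all were called; 9 receptors were shared, NR0B2 and PPARG were lost and NR0B1 was gained. Deviations of same-numbered libraries correlated at -0.06, 0.007, -0.03 and 0.23, and not every library correlated best with its own number. Libraries of different numbers correlated at -0.43 to 0.45. These values do not show that the numbers pair the samples, and with 4 libraries per group they cannot exclude it.

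The direction changed in receptors that were not called. With total counts only the log2 fold change was 0.036 for NR2F2, 0.038 for NR2F6 and 0.089 for NR4A3, and without an expression filter it was 0.025 for NR4A3. Without replicate 1 of both groups it was 0.027 for PPARA, 0.013 for NR2F2, 0.059 for NR2F6 and -0.090 for NR4A2. After thinning it was -0.019 for RXRA and 0.14 for NR4A3. With single libraries left out it ran from -0.032 to 0.19 for HNF4A, -0.35 to 0.0024 for HNF4G, -0.069 to 0.12 for RXRA, -0.14 to 0.058 for NR2F2, -0.098 to 0.019 for NR2F6, -0.13 to 0.66 for NR4A2 and -0.64 to 0.24 for NR4A3. The cause of these changes was not tested. The depth limits VDR and NR1I2, with as few as 2 and 1 counts in a parental library, and the 11 untested members.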
